A study of Mus musculus with 8 samples.

Results

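The genes described here are *Igf2*, *H19* and 8 further imprinted genes that act on growth: *Igf2r*, *Dlk1*, *Meg3*, *Cdkn1c*, *Plagl1*, *Peg3*, *Grb10* and *Mest*. They were chosen by name, as a list of 10 symbols, and looked up in a table of 22206 gene-level probe sets, and 9 of the 10 had a probe set, 1 each. *Meg3* was not analysed here. The *H19* probe set also names *Mir675*, the microRNA gene inside *H19*, so its signal cannot be split between the 2 names. The measurements come from the gastrocnemius (GAS) of male mice, labelled as C57/Bl6j and 14wk old, 3 weeks after intramuscular delivery of an adeno-associated virus (AAV). One group received AAV sh-RNA MYTHO, a virus of serotype 1 whose U6 promoter drives a short hairpin RNA against the *Mytho* transcript (D230025D16Rik). The other received AAV sh-RNA scrmb, the same kind of virus with a scrambled hairpin, so both groups carried virus and hairpin and no uninjected muscle was compared. There were 4 arrays in each group, 8 in all. The scrambled virus went into the leg opposite the MYTHO virus, so the 8 arrays came from 4 animals, called A to D here. The U6 promoter is active in any cell type that the virus enters. All values are log2 signals of whole muscle, in which a difference of 1 is a doubling, and fewer cells of a type and less RNA per cell cannot be told apart in them.

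Imprinted genes are expressed mainly from the copy inherited from one parent, and many of them set how large an embryo and its tissues grow. On distal mouse chromosome 7, a control region between *Igf2* and *H19* is methylated on the paternal chromosome only, so the shared enhancers act on *Igf2* on the paternal copy and on *H19* on the maternal copy. IGF2 is a growth factor that acts through the IGF1 and insulin receptors, the receptor coded by *Igf2r* removes it from the cell surface for breakdown, and *H19* is a non-coding RNA that carries a microRNA. In skeletal muscle *Igf2* and *H19* are high before and around birth, decline afterwards, and are induced again when myoblasts differentiate and when muscle regenerates. Of the genes measured here, *Igf2*, *Dlk1*, *Plagl1*, *Peg3* and *Mest* are expressed from the paternal copy in most tissues, and *H19*, *Igf2r*, *Cdkn1c* and *Grb10* from the maternal copy.

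In the RefSeq annotation of GRCm38.p6, the assembly called mm10, *H19* (Entrez gene 14955, a long non-coding RNA) lies at chr7:142575530-142578146 and *Igf2* (Entrez gene 16002, protein coding, minus strand) at chr7:142650768-142666816. The gap between them is 72.6 kb. Each of the 2 genes holds a microRNA hairpin, *Mir675* in *H19* at chr7:142577064-142577147 and *Mir483* in *Igf2* at chr7:142654924-142654996. The hairpin of *Mir675*, 84 bases long on the minus strand, is shown because the array names it together with *H19*, with the 2 mature arms in capitals. The mature sequences of both loci follow with the seed, bases 2 to 8 from the 5′ end, in capitals.
Mir675 hairpin: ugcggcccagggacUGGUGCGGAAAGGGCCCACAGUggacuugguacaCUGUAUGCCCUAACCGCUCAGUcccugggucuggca
miR-675-5p: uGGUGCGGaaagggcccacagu
miR-675-3p: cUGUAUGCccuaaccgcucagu
miR-483-5p: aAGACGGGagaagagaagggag
miR-483-3p: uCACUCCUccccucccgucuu
The 4 seeds differ from each other, and each occurs in 1 mature microRNA of the RefSeq table. The array measured the gene-level transcripts, and none of the mature microRNAs was measured here.

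RefSeq lists 4 windows of 250 bases before an *Igf2* start site. They are not alike in CG dinucleotides, the pairs whose methylation marks imprinted copies, and the windows with the fewest and the most are shown, with each CG in capitals, read 5′ to 3′ on the minus strand of GRCm38.p6.
Igf2 window at chr7:142666817-142667066: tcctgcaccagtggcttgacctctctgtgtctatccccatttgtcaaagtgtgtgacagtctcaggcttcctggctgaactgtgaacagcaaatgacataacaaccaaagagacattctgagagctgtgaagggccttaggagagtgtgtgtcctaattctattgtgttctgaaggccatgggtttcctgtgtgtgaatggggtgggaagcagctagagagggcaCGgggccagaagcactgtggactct
Igf2 window at chr7:142658805-142659054: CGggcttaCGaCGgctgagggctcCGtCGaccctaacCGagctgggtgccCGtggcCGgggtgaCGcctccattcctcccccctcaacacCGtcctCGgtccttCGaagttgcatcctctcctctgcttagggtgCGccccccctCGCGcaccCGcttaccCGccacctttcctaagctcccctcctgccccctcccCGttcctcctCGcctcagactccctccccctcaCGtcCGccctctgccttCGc
The first holds 1 CG and the second 22. The search was for the letters CG, which read the same on both strands. Of the 32851 windows of all genes, 92.1% hold at least 1 CG and 14.8% at least 22, and the median is 6. The other 2 *Igf2* windows hold 10 and 6. The *Igf2* probe set gives a single gene-level value, so the use of single start sites was not measured, and methylation was not measured either. Windows were present for 8 of the 10 genes. *H19* and *Cdkn1c* had none.

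Before the genes themselves, the hairpin target and the arrays were checked. In animals A to D, D230025D16Rik had a log2 signal of 11.35, 11.31, 10.78 and 11.05 in the scrmb leg and 8.16, 8.20, 8.80 and 8.08 in the MYTHO leg. It fell by 2.81 on the log2 scale with a limma adjusted p of 0.00044, and it was lower in 4 of 4 animals. Array medians lay between 6.39 and 6.47. On the first principal component, with 28.2% of the variance, the scrmb array of animal D scored 3.31, apart from the other scrmb arrays at -45.35 to -25.75. The muscle fibre markers had array means of 18.87 to 19.10, close to the highest log2 signal of 19.93, so the defining markers of the labelled tissue were present.

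*Igf2* and *H19* were the only 2 of the 9 measured genes with a limma unadjusted p under 0.05, both higher in MYTHO muscle, where 4.81% of all probe sets were called higher by that rule. None of the 9 was called lower, against 7.58% of all probe sets. No gene of the 9 passed a limma adjusted p of 0.05, which 0.00901% of all probe sets passed as higher and 0.018% as lower. The threshold in the methods of the study, 2-fold or more plus an unadjusted p under 0.05, was met by *H19* alone among the 9, against 0.261% of all probe sets as higher. None of the 9 met it as lower, against 1.25%. Neither direction held a gene of the 9 whose groups did not overlap, against 2.59% and 3.87% of all probe sets. *Igf2* and *H19* were higher in the MYTHO leg of 4 of 4 animals, and this held for 8.94% of all probe sets. None of the 9 was lower in 4 of 4 animals, against 10.8%. With animal as a block the same 2 genes had a limma unadjusted p under 0.05 as higher, against 4.94% of all probe sets, and none as lower, against 7.66%.

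*Igf2* codes for the growth factor. From animal A to animal D its log2 signals were 9.85, 9.26, 9.33 and 9.30 in scrmb muscle and 10.77, 9.77, 9.85 and 10.34 in MYTHO muscle. The scrmb array of animal A stood above the other scrmb arrays, equalled the MYTHO array of animal C and exceeded that of animal B, so the groups overlapped. Within each animal the MYTHO leg was higher, by 0.92, 0.51, 0.52 and 1.04. Mean signals of 9.44 ± 0.28 (SD, n = 4) for scrmb and 10.18 ± 0.47 (SD, n = 4) for MYTHO gave a log2 fold change of 0.75 (standard error 0.25, 95% interval 0.21 to 1.28), a 1.68-fold higher signal. The limma unadjusted p was 0.0104 and the adjusted p 0.251. With animal as a block the unadjusted p was 0.00346 and the adjusted p 0.198. An exact two-sided permutation test, with 70 ways to split the arrays, gave p = 0.0857, where 0.0286 is the smallest value possible. These splits do not keep the legs of an animal together as a pair. Leaving out both legs of animal D took the limma unadjusted p past 0.05, to 0.0598, with a log2 fold change of 0.65.

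*H19*, the non-coding RNA that shares its enhancers with *Igf2*, had the largest difference of the 9 genes. Its log2 signals, again from animal A to animal D, were 12.72, 11.77, 12.19 and 11.74 in scrmb muscle and 13.28, 13.44, 13.71 and 12.72 in MYTHO muscle. The lowest MYTHO array, from animal D, equalled the highest scrmb array, from animal A, and the other 3 MYTHO arrays were above every scrmb array. The MYTHO leg was higher by 0.56, 1.67, 1.52 and 0.98 in animals A to D. Mean signals of 12.11 ± 0.46 (SD, n = 4) for scrmb and 13.29 ± 0.42 (SD, n = 4) for MYTHO gave a log2 fold change of 1.18 (standard error 0.27, 95% interval 0.60 to 1.77), a 2.27-fold higher signal. The limma unadjusted p was 0.000872 and the adjusted p 0.123, and the exact permutation test gave p = 0.0571. Blocking on animal gave a limma unadjusted p of 0.000568 and an adjusted p of 0.158.

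**Figure D1:**
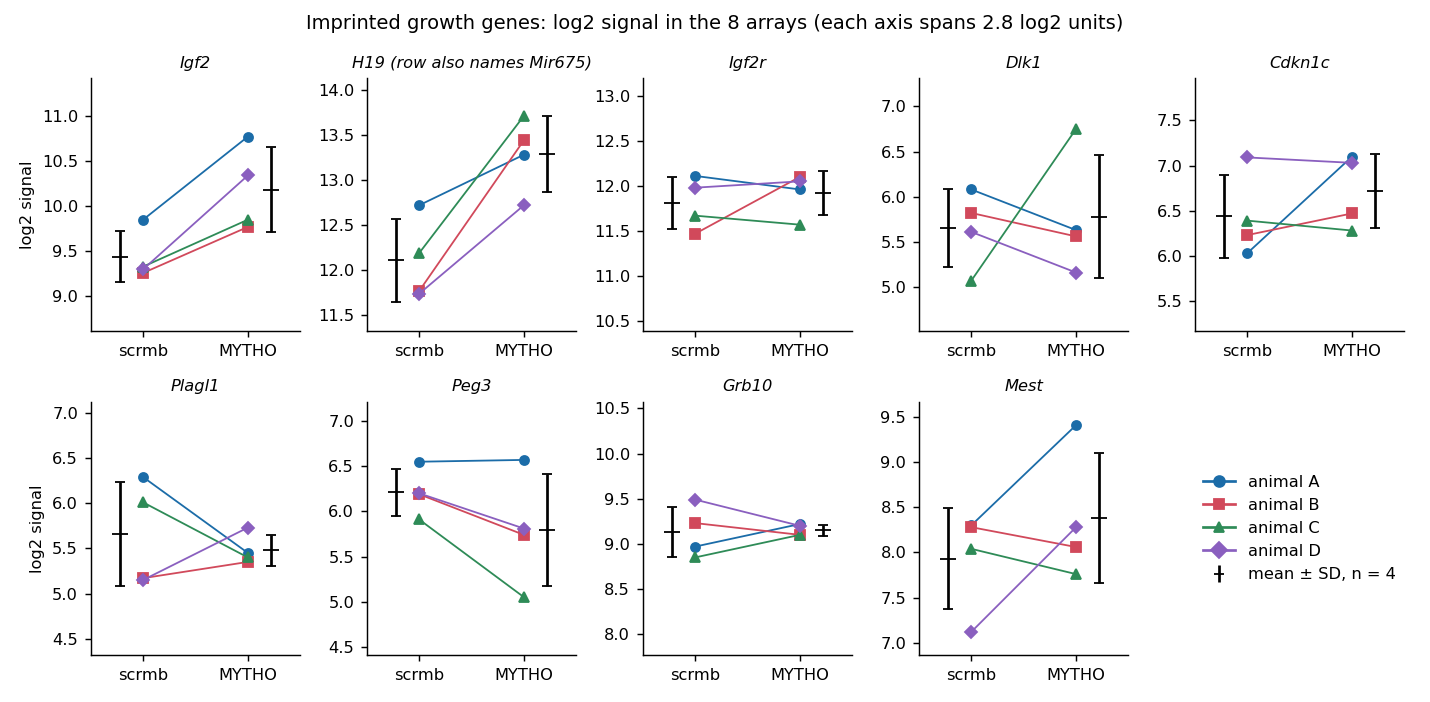
Log2 signal (y axis, each panel spanning the same range of log2 units) of the 9 measured imprinted growth genes in scrmb and MYTHO muscle (x axis). Each line joins the 2 legs of one animal, and the black bars are group means ± SD (n = 4). All 4 lines go up for *Igf2* and for *H19*, while the lines of the other 7 genes go both ways.

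The order of the animals was not the same for the 2 genes of the domain. *Igf2* differed most between the legs of animals D and A, at 1.04 and 0.92, and *H19* between those of animals B and C, at 1.67 and 1.52. Over the 8 arrays the 2 genes had a Pearson correlation of 0.649, a description only, as the arrays share 4 animals and the 2 groups. *Igf2* was closer to *Mest* by the same measure, at 0.742, than to *H19*.

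*Igf2r*, whose product carries IGF2 to the lysosome, gave log2 signals of 12.11, 11.47, 11.67 and 11.98 in scrmb and 11.96, 12.10, 11.57 and 12.05 in MYTHO. The groups overlapped over most of their range, and 2 of 4 animals were higher in the MYTHO leg. The log2 fold change was 0.11 with a 95% interval of -0.33 to 0.56 and a limma unadjusted p of 0.59. The interval lies within a 2-fold change in either direction.

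*Cdkn1c* and *Grb10* code for inhibitors of growth, the first a cyclin-dependent kinase inhibitor and the second an adaptor that binds the insulin and IGF1 receptors. *Cdkn1c*, at chr7:143458339-143461059 in the imprinted cluster next to that of *Igf2*, gave log2 signals of 6.03, 6.23, 6.39 and 7.09 in scrmb and 7.10, 6.47, 6.28 and 7.03 in MYTHO. The scrmb array of animal D lay between the 2 highest MYTHO arrays, and only animal A had a large difference between its legs, at 1.07. Its log2 fold change was 0.28 with a 95% interval of -0.30 to 0.87 and a limma unadjusted p of 0.306. Without the scrmb array of animal D it was 0.503 (limma unadjusted p = 0.0635), and without both legs of animal A 0.0233. *Grb10*, at chr11:11930499-12037428, gave log2 signals of 8.97, 9.23, 8.85 and 9.49 in scrmb and 9.22, 9.10, 9.10 and 9.20 in MYTHO. All its MYTHO arrays lay inside the scrmb range, and 2 of 4 animals were higher in the MYTHO leg. Its log2 fold change was 0.02 with a 95% interval of -0.38 to 0.42, the narrowest interval of the 9 genes.

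*Dlk1* codes for a membrane protein of the Notch ligand family that acts on muscle and fat precursors, and lies with *Meg3* in an imprinted domain on chromosome 12. Its log2 signals were 6.08, 5.82, 5.07 and 5.61 in scrmb and 5.63, 5.56, 6.75 and 5.16 in MYTHO. The MYTHO array of animal C was the highest of the 8 and the scrmb array of the same animal the lowest, and in the other 3 animals the MYTHO leg was the lower one. The log2 fold change was 0.13 with a 95% interval of -0.58 to 0.84 and a limma unadjusted p of 0.696. Without animal C the log2 fold change was -0.387 and the limma unadjusted p 0.121.

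*Plagl1* and *Peg3* code for zinc finger proteins, and PLAGL1 is a transcription factor known to act on other imprinted genes. *Plagl1* gave log2 signals of 6.29, 5.17, 6.01 and 5.15 in scrmb and 5.45, 5.35, 5.4 and 5.73 in MYTHO. The scrmb arrays split into a pair above and a pair below all MYTHO arrays, and 2 animals differed each way. Its log2 fold change was -0.17 with a 95% interval of -0.75 to 0.40 and a limma unadjusted p of 0.527. *Peg3* gave log2 signals of 6.55, 6.19, 5.91 and 6.20 in scrmb and 6.57, 5.74, 5.05 and 5.81 in MYTHO. The MYTHO leg was lower in 3 of 4 animals, while the 2 legs of animal A differed by 0.02. Its log2 fold change was -0.42 with a 95% interval of -1.04 to 0.20 and a limma unadjusted p of 0.165, and 0.0672 with animal as a block. Leaving out the MYTHO array of animal A gave a log2 fold change of -0.679 and took the limma unadjusted p to 0.0185. Without the MYTHO array of animal C they were -0.172 and 0.507.

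*Mest* codes for an enzyme of the alpha/beta hydrolase family. Its log2 signals were 8.30, 8.28, 8.04 and 7.12 in scrmb and 9.41, 8.06, 7.76 and 8.28 in MYTHO. The MYTHO array of animal A stood highest and the scrmb array of animal D lowest, and the other arrays of the 2 groups were mixed. The MYTHO leg was higher by 1.11 and 1.16 in animals A and D and lower in the other 2, the same pair of animals in which *Igf2* differed most. The log2 fold change was 0.44 with a 95% interval of -0.34 to 1.22 and a limma unadjusted p of 0.24. It was 0.0983 without the MYTHO array of animal A and 0.171 without the scrmb array of animal D. Without both legs of animal C it was 0.683.

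Of the 9 intervals, 7 spanned 0 and 5 lay within a 2-fold change in either direction, those of *Igf2r*, *Dlk1*, *Cdkn1c*, *Plagl1* and *Grb10*. For *Peg3* a 2-fold lower and for *Mest* a 2-fold higher signal remained inside the interval. The 5 paternally expressed genes ran from -0.42 to 0.75 with a median log2 fold change of 0.13, and the 4 maternally expressed genes from 0.02 to 1.18 with a median of 0.20, with 1 gene each at an unadjusted p under 0.05. The median of the 9 was 0.13 and that of all probe sets 0, and 95% of all probe sets lay between -0.80 and 0.61. Most values of *Dlk1*, *Plagl1* and *Peg3* were below the median of their array, and detection calls were not used here.

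**Figure D2:**
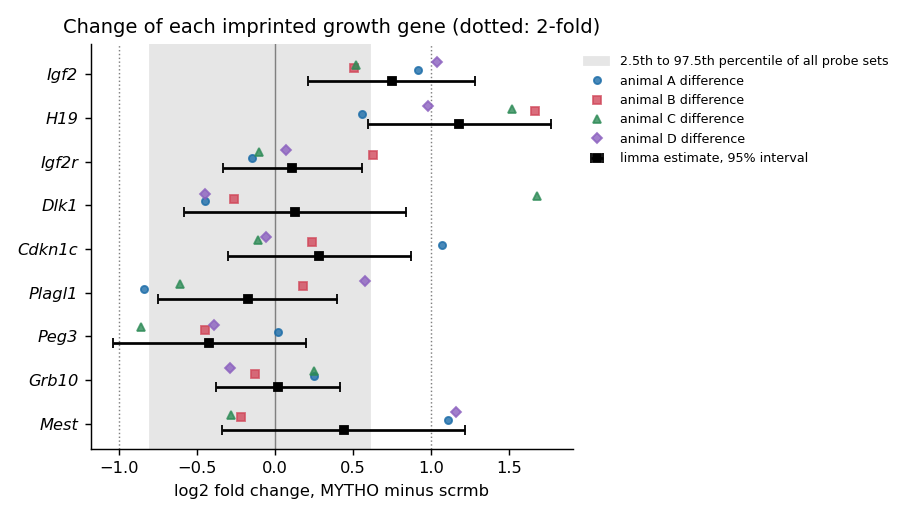
Log2 fold change, MYTHO minus scrmb (x axis), of the 9 measured imprinted growth genes (y axis), with the limma estimate and its 95% interval in black and the difference between the legs of each animal in colour. The grey band holds 95% of all probe sets. The estimates of *Igf2* and *H19* lie to the right of the band, and the other 7 intervals cross 0.

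Genes near *Igf2* and *H19* on the chromosome were compared in the same fit. At an unadjusted p under 0.05, 4.81% of all probe sets were higher and 7.58% lower. These are the shares to set beside the counts of this list and of every list below. Of 21 measured neighbours on distal chromosome 7, none had a limma unadjusted p under 0.05 in either direction, and their median log2 fold change was 0. *Mrpl23*, a mitochondrial ribosomal protein gene with its midpoint 40.2 kb from that of *H19*, had a log2 fold change of 0.06 with a 95% interval of -0.36 to 0.48. *Ins2*, the insulin gene next to *Igf2*, had -0.01 with an interval of -0.52 to 0.49. *Tnnt3* and *Tnni2*, fast troponin genes near *H19*, had -0.02 and -0.03, but their log2 signals of 19.62 to 19.87 were close to the ceiling of 19.93, which limits any difference that could be seen. Among the imprinted genes around *Cdkn1c*, *Phlda2*, a placental growth inhibitor, had -0.32 and the potassium channel gene *Kcnq1* had 0.36, with unadjusted p of 0.23 and 0.249. *Ins2*, *Phlda2* and *Kcnq1* had scrmb means of 5.67, 5.1 and 4.41, below the array medians of 6.39 to 6.47. Some other neighbours were low too, such as *Ascl2* at 3.66. Signals this low may hold background, which also limits any difference that could be seen. A difference between *Igf2* or *H19* and these neighbours was not itself tested.

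**Figure D3:**
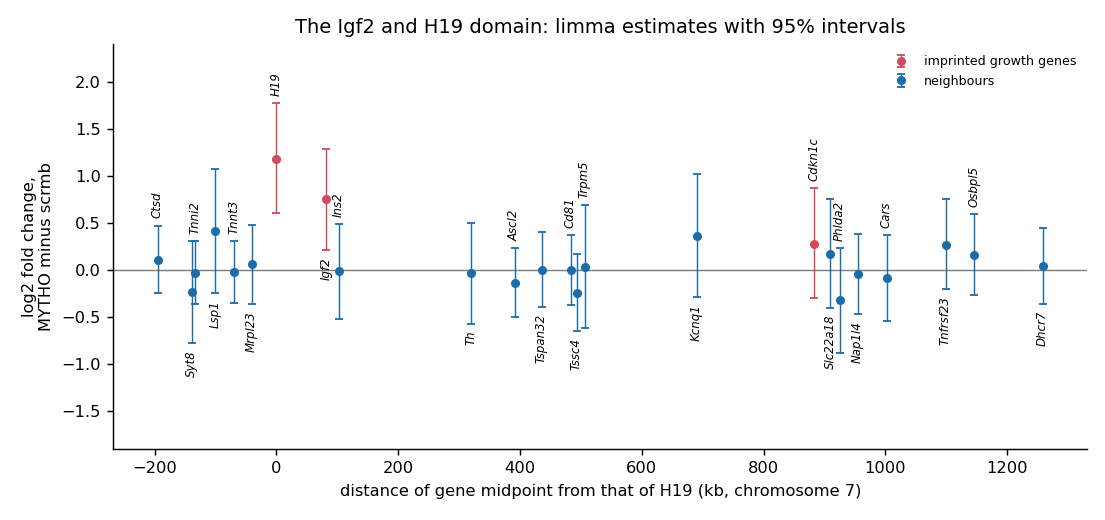
Log2 fold change, MYTHO minus scrmb (y axis), with 95% limma intervals for *Igf2*, *H19*, *Cdkn1c* and 21 neighbours against the distance of each gene's midpoint from that of *H19* (x axis, kb). Only *H19* and *Igf2* have intervals that stay above 0.

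Neighbours of the other imprinted growth genes were counted as well. Of the 56 measured neighbours of all domains together, 1 was higher and 1 lower at an unadjusted p under 0.05, and without the scrmb array of animal A none was higher and 3 were lower. With animal as a block 2 were lower. The higher one was *Rtl1*, a retrotransposon-derived gene in the domain of *Dlk1*, whose probe set also names *Mir3071*. Its log2 signals were 3.51, 3.64, 4.02 and 3.15 in scrmb and 4.11, 3.95, 4.22 and 3.97 in MYTHO, all low for these arrays, and the groups overlapped through the scrmb array of animal C. Its log2 fold change was 0.48 (limma unadjusted p = 0.036). The lower one was *Acat2*, an acetyl-CoA acetyltransferase gene near *Igf2r*, with a log2 fold change of -0.52 (limma unadjusted p = 0.0182).

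Across the genome, 46 of 52 further imprinted genes had a probe set. *Snrpn* and *Snurf* share one, which leaves 45 probe sets, with a median log2 fold change of 0.03. At an unadjusted p under 0.05, 2 were higher and none lower, against 4.81% and 7.58% of all probe sets. *Gnas*, which codes for the stimulatory G protein alpha subunit, gave log2 signals of 15.97, 15.68, 15.84 and 16.27 in scrmb and 16.38, 16.60, 16.47 and 16.46 in MYTHO, so that its groups did not overlap. Its log2 fold change was 0.54 (limma unadjusted p = 0.0114, adjusted p = 0.258). Of all probe sets, 2.59% were higher without overlap. *Rtl1* was the other probe set called higher. It was also counted among the neighbours, as were other genes of this list such as *Ins2* and *Kcnq1*. *Ins2* is in the IGF axis list as well, so these lists overlap. Without animal B none of the 45 probe sets was higher, and without the scrmb array of animal A 3 were lower.

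The other genes of the IGF axis comprised 24 genes for ligands, receptors, receptor substrates, binding proteins, proteases, protease inhibitors and mRNA-binding proteins, all measured. At an unadjusted p under 0.05, 2 were higher and none lower, with a median log2 fold change of 0.09. Without animal A none was higher and 1 was lower. *Htra1*, a secreted protease that can cleave IGF binding proteins, gave log2 signals of 7.72, 8.69, 7.95 and 8.87 in scrmb and 9.60, 8.89, 8.93 and 9.68 in MYTHO, without overlap. Its log2 fold change was 0.97 (limma unadjusted p = 0.00627, adjusted p = 0.213). Of all probe sets, 2.59% were higher without overlap. *Ins1*, an insulin gene of the pancreas with log2 signals of 4.43 to 5.28 here, had a log2 fold change of 0.45 and an unadjusted p of 0.0231. *Igf1*, the main postnatal ligand, had a log2 fold change of -0.28 with a 95% interval of -0.75 to 0.20, and its receptor gene *Igf1r* had -0.18 with an interval of -0.60 to 0.23. *Igf2bp2*, whose product binds *Igf2* mRNA, had 0.34 with an interval of -0.04 to 0.73.

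**Figure D4:**
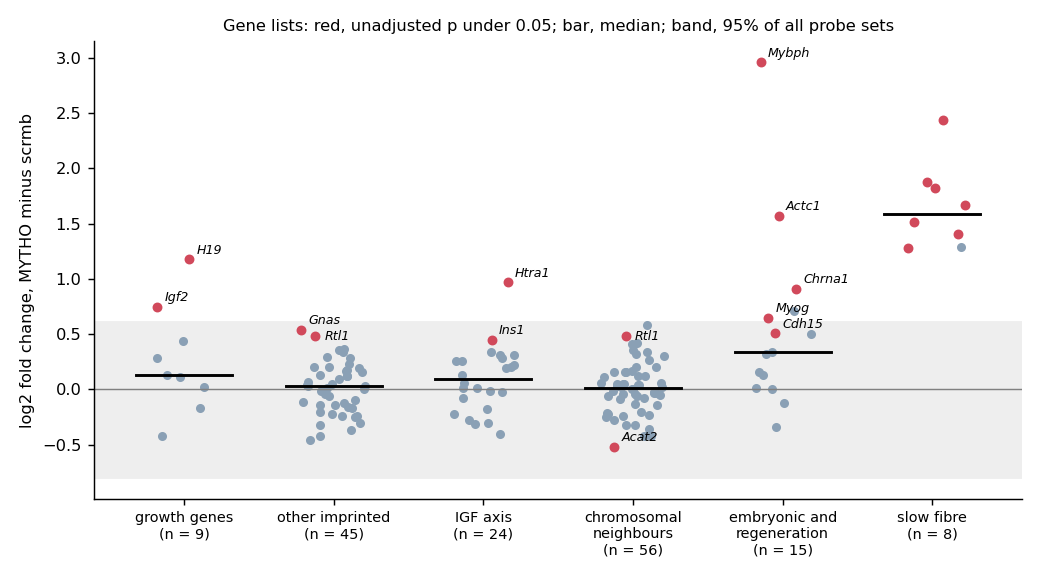
Log2 fold change, MYTHO minus scrmb (y axis), of every probe set in 6 gene lists (x axis), some of which share genes. Red points have a limma unadjusted p under 0.05, black bars are list medians and the grey band holds 95% of all probe sets; the medians of the first 4 lists lie between 0.01 and 0.13, those of the embryonic and slow-fibre lists at 0.34 and 1.59.

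*Igf2* and *H19* are known to be high in immature and regenerating muscle, so genes of those states and markers of cell types in muscle were read beside them. Of 15 embryonic and regeneration genes, 5 were higher at an unadjusted p under 0.05 and none lower, with a median log2 fold change of 0.34. Over all probe sets, 4.81% were higher and 7.58% lower by that rule. One of the 15, *Myh8*, was saturated at 19.93 on all 8 arrays, so that no difference could be seen in it. Those called included *Mybph*, a myosin-binding protein gene, at 2.96, the cardiac actin gene *Actc1* at 1.57 and *Myog*, which codes for the myogenic factor myogenin, at 0.65. The value of *Mybph* was the highest of all probe sets. Of the 15, 12 had a positive log2 fold change. The 2 with a negative one were *Myf5*, at -0.12, and *Myf6*, at -0.34 and lower in 4 of 4 animals. *Myod1* had 0.16. *Myh3* had 0.71 (limma unadjusted p = 0.0736, and 0.0433 with animal as a block) and was lower in animal D. The mean of the list was higher in the MYTHO leg by 0.93, 0.56, 0.43 and 0.30 in animals A to D. Of 8 slow-fibre genes, 7 were higher, with a median of 1.59. From animal A to animal D the slow-fibre mean was 13.70, 11.91, 11.94 and 11.61 in the scrmb arrays and 14.88, 14.43, 14.81 and 11.68 in the MYTHO arrays, so the scrmb array of animal A, highest of its group for *Igf2* and *H19*, was also highest there. The differences of this mean between the legs were 1.18, 2.52, 2.87 and 0.08. Of 11 general muscle fibre markers, 2 were higher at an unadjusted p under 0.05 and none lower, *Myh1*, a fast myosin heavy chain gene, at 0.70 and the myoglobin gene *Mb* at 0.55, and the mean of that list was higher in 4 of 4 animals by 0.04 to 0.23. *Acta1* and *Myh4* in that list were saturated on all 8 arrays, and *Tnnt3*, *Tnni2* and *Pvalb* were close to the ceiling, so a higher signal could not be seen in them. The part of fibre type in the results for *Igf2* and *H19* was not tested.

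Of 12 satellite cell markers, 1 was higher and none lower, with list means of 6.08 to 6.52 in scrmb and 6.47 to 6.58 in MYTHO. The marker called was *Cdh15*, at 0.51 (limma unadjusted p = 0.0305), already counted among the called embryonic and regeneration genes. *Myf5* is in both lists as well. The log2 fold change was positive for 11 of the 12, with a median of 0.24, and the mean of the list differed between the legs by 0.18, 0.28, 0.39 and -0.02 in animals A to D. Of 12 fibroblast and fibro-adipogenic markers, 1 was higher and 1 lower, with list means of 10.88 to 11 in scrmb and 10.82 to 11.38 in MYTHO. The highest of these means belonged to the MYTHO array of animal A, which also had the highest *Igf2* and *Mest* signals. Without animal A, *Igf2* had a log2 fold change of 0.69 (limma unadjusted p = 0.012). All 8 endothelial markers had positive log2 fold changes, 2 of them at an unadjusted p under 0.05, and their list means were 9 to 9.31 in scrmb and 9.52 to 9.73 in MYTHO, without overlap. Of 10 macrophage markers none was called, with list means of 6.72 to 7.15 in scrmb and 6.78 to 7.15 in MYTHO, but with animal as a block *Cd68* was higher (limma unadjusted p = 0.0332). Of 6 adipocyte markers, 1 was higher and none lower, with list means of 6.56 to 9.46 and 7.12 to 11. The mean of the list differed between the legs by 2.60, -1.81, -0.65 and 0.56 in animals A to D, positive in the same animals, A and D, in which *Igf2* and *Mest* differed most, and its highest value was in the MYTHO array of animal A. The marker called was the lipoprotein lipase gene *Lpl*, at 1.33 (limma unadjusted p = 0.0112), which muscle fibres also express, with differences between the legs of 0.47, 2.86, 2.31 and -0.31 in animals A to D. None of 6 Schwann cell markers had a positive log2 fold change and none was called, with list means of 6.85 to 8.52 and 6.88 to 7.39. With animal as a block, 1 of them was lower at a limma unadjusted p under 0.05. Blood markers had list means of 10.29 to 11.95 and 10.77 to 12.88, with none called. The part of these cell types in the results for *Igf2* and *H19* was not tested.

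**Figure D5:**
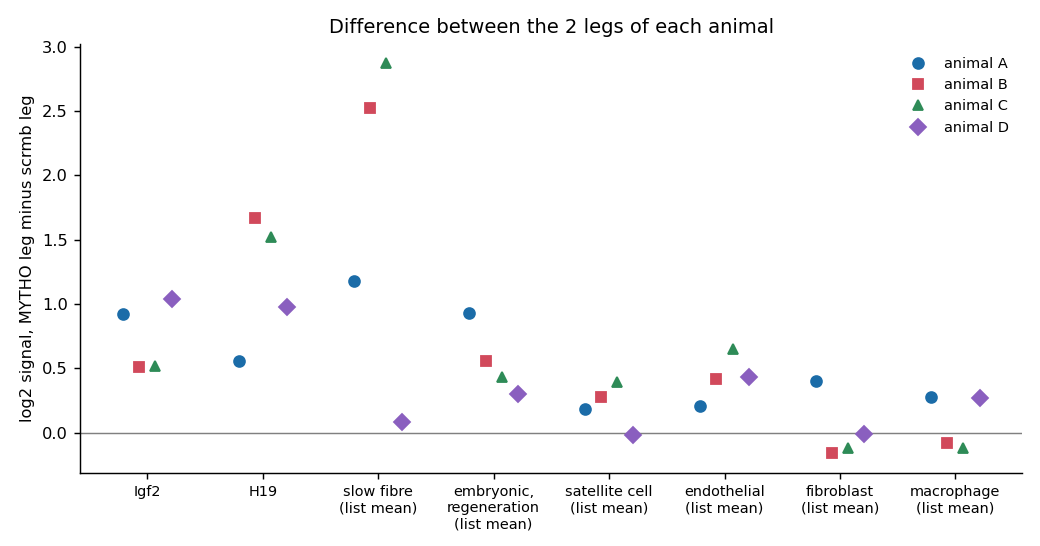
Difference in log2 signal between the MYTHO and the scrmb leg (y axis) of animals A to D for *Igf2*, *H19* and the means of 6 marker lists (x axis). *Igf2*, *H19* and the embryonic, endothelial and slow-fibre lists are above 0 in every animal, the slow-fibre list only by 0.08 in animal D.

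The genes whose profile over the 8 arrays was most like that of *Igf2* were *Nfkb2*, *Fdps*, *Mlec*, *Emcn* and *Rbm4*, with Pearson correlations of 0.972, 0.964, 0.954, 0.934 and 0.933. *Fdps* codes for an enzyme of the mevalonate pathway and *Emcn* for an endothelial surface protein. The genes most like *H19* were *Myom3*, *Ppp1r14a*, *B4galnt4*, *Ubn2* and *Vps33b*, at 0.989, 0.957, 0.952, 0.951 and 0.950, and the *Ubn2* probe set also names *Mir7670*. *Myom3* codes for a myomesin of the M-band. Its log2 signals were 8.11, 7.41, 7.71 and 7.31 in scrmb muscle and 8.63, 8.59, 8.81 and 7.92 in MYTHO muscle, from animal A to animal D. These are the highest of the correlations with all probe sets, over arrays that share animals and groups. They describe likeness only.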

How the data were processed

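RNA of 8 GAS muscle samples was hybridised to Clariom S Mouse arrays. The authors deposited log2 signals made with Transcriptome Analysis Console version 4.0.1 at default settings (SST-RMA, annotation release 36, build mm10). Background correction and normalization across arrays preceded deposit, so levels are relative and arrays cannot show a change of all RNA. The group averages, fold changes and p-values deposited beside the log2 signals were not used. The precision is limited by 4 arrays per group. With no detection calls used, signals near the low end may hold background.

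The 22206 probe sets were fitted together in R version 4.3.3 by limma version 3.58.1 (lmFit and eBayes, MYTHO minus scrmb, two-sided, Benjamini-Hochberg adjustment over all probe sets), without a block, as the study's methods name none. The script was tested on simulated data. Column names carry an animal number found once in each group, and the methods place the scrambled virus in the opposite leg, so the arrays are paired by animal. Deviations of the 2 legs from their group means correlated at -0.00145 to 0.135. Which column carries which replicate number of the labels is not given in the sources used here, so animal was taken as the block in place of those numbers.

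Genes were matched by symbol, or by Entrez ID through the RefSeq table for GRCm38.p6. Named genes were the 10 imprinted growth genes, the hairpin target, genes of each list with an unadjusted p under 0.05 (at most 5), neighbours by position, up to 3 genes of each marker list, and the 5 profiles most like *Igf2* and *H19*. *Igf1*, *Igf1r* and *Igf2bp2* are outside this rule. So are genes named for saturation, low signal, a shared probe set or list, or a call under the animal block. The same holds for genes named beside the calls of a marker list. All of these were named after their values were seen. The genes and lists were chosen with earlier results of these data known. Alternatives were quantile normalization, median centring, filters on low signals, 1 probe set per symbol, eBayes with trend and robust, array weights, animal blocks, other thresholds and leaving out each array. Leaving out saturated probe sets and leaving out each animal were added after the data were seen.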

Additional observations from a re-analysis of the deposited data

Results flagged for a closer look

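Of 32 groups of 4 arrays tested for a stray value, 5 held one array whose gap to its nearest neighbour was an unusually large share of the range of the group, and chance gives about 1 in 20. *Igf2* had a log2 signal of 9.85 in the scrmb array of animal A, against 9.26 to 9.33 in the other scrmb arrays. The mean of the slow-fibre genes was 13.70 in the same array, against 11.61 to 11.94. In MYTHO muscle that mean was lowest in animal D, at 11.68, and ran from 14.43 to 14.88 in animals A to C. The mean of the fibroblast and fibro-adipogenic markers was 11.38 in the MYTHO array of animal A, against 10.82 to 10.88. D230025D16Rik had a log2 signal of 8.80 in the MYTHO array of animal C, against 8.08 to 8.20, and all 4 values were below those of the scrmb arrays.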

How the results depend on the processing

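Over 22 settings, *H19* had a limma unadjusted p under 0.05 in all 22 and *Igf2* in 21, the exception being without both legs of animal D. Leaving out 1 array or 1 animal gave log2 fold changes of 1.02 to 1.39 for *H19* and 0.552 to 0.886 for *Igf2*, and the other settings gave 1.18 to 1.22 and 0.748 to 0.832. The limma adjusted p ran from 0.0284 to 0.549 for *H19* and from 0.154 to 0.56 for *Igf2*. It passed 0.05 only for *H19* with eBayes trend and robust, at a log2 fold change of 1.18. Without 1 array or animal, the log2 fold change of *Cdkn1c* ran from 0.0233 to 0.503, *Peg3* from -0.679 to -0.172 and *Mest* from 0.0983 to 0.683. Leaving out arrays or animals turned the sign of 4 genes with no call, with ranges of -0.06 to 0.229 for *Igf2r*, -0.387 to 0.335 for *Dlk1*, -0.423 to 0.05 for *Plagl1* and -0.075 to 0.138 for *Grb10*. Of the imprinted growth genes, the count higher at an unadjusted p under 0.05 was 1 with at least 2-fold, 0 with an adjusted p under 0.05, 0 for groups that do not overlap, and 1 to 2 when leaving out arrays or animals. The count lower was then 0 to 1, the 1 being *Peg3* without the MYTHO array of animal A. Without 1 array or animal, the other imprinted genes had 0 to 3 higher (0 without animal B) and 0 to 3 lower (3 without the scrmb array of animal A), the IGF axis 0 to 3 higher (0 without animal A, 3 without animal D) and 0 to 2 lower (2 without the MYTHO array of animal A), and all neighbours 0 to 2 higher and 0 to 3 lower (3 without the scrmb array of animal A). A filter on mean signal that kept the upper 75%, or 50%, of the probe sets left 1 other imprinted gene, 1 gene of the IGF axis and 0 neighbours higher. The upper 50% also dropped *Dlk1*, *Plagl1* and *Peg3*. The causes of these moves were not tested, apart from the fewer probe sets or arrays. With the replicate block on animal, 2 neighbours were lower, *H19* stayed at 1.18 and *Igf2* at 0.748, and no call of the imprinted growth genes changed. Among the marker lists the block added 1 macrophage marker, 1 endothelial marker, 1 embryonic gene and 1 slow-fibre gene as higher. It added 1 Schwann cell marker as lower. The block on label numbers was not run, and no imprinted growth gene had another probe set to try. Precision is limited by 4 arrays per group and, for *Dlk1*, *Plagl1* and *Peg3*, by low signal.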
